A study of Homo sapiens with 12 samples.

Results

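This report compares 22Rv1 with LNCaP, a pair of human prostate cancer cell lines, in the 6 RNA-seq libraries that received a negative control mimic (NC-mimic), out of 12 libraries in the series. The members are 3 NC-mimic libraries of 22Rv1 and 3 of LNCaP, chosen by their labels, and the other 6 libraries received a mimic of the PIWI-interacting RNA piR-4447944. LNCaP was derived from a lymph node metastasis of a prostate carcinoma, and 22Rv1 from a xenograft that had relapsed after castration of its host. The cells of both groups were transfected with NC-mimic by lipofection and deprived of androgen by culture in 10% charcoal-stripped serum (CS-FBS), which is depleted of steroids. Each group is 1 established line, so any difference between them holds for these lines and not for a disease stage. The sources used here do not say whether the 3 libraries of a group came from separate cultures, and p-values therefore measure only the spread between these libraries.

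Prostate luminal cells depend on androgens, which switch on genes such as KLK3, which encodes prostate-specific antigen. Withdrawal of androgens lowers this program, and cancers that grow in spite of it are called castration-resistant. Such tumors can make their own steroids, take up the glucocorticoid receptor, or acquire neuroendocrine genes.

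The library totals ran from 12161091 expected counts in 22Rv1 replicate 3 to 22179601 in 22Rv1 replicate 1, and the LNCaP totals from 16428643 to 19739559. The luminal markers HOXB13 and FOXA1 were present in every library of both lines. Defining markers of fibroblasts, leukocytes and endothelium were low apart from COL1A1: 4 of 10, 2 of 10 and 2 of 8 passed the filter on low counts, and of these 1, 1 and 0 were called higher and 2, 1 and 1 lower in 22Rv1. COL1A1, a collagen chain, had 12.3, 15.2 and 38.4 normalized counts (CPM, scaled to library size) in 22Rv1 and 65.8, 67.8 and 81.5 CPM in LNCaP. 22Rv1 replicate 3 stood apart from its group. The second principal component, with 7.07% of the variance, placed it at -74.4 and the other 22Rv1 libraries at 36.2 and 37.3, whereas the first, with 87.2%, separated the lines. The correlation of log2 CPM was 0.9498 to 0.9778 within 22Rv1, 0.9861 to 0.9902 within LNCaP and 0.7464 to 0.7619 between the lines. Fold changes that moved by over 1.5 times without it are given both ways.

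Of 17483 genes tested, 3343 were called higher in 22Rv1 (19.1% of genes tested) and 2697 lower (15.4%). A call required that the quasi-likelihood test of edgeR gave an adjusted p (Benjamini-Hochberg) under 0.05 and that the log2 fold change was over 1 in size. Log2 fold changes are 22Rv1 over LNCaP throughout, and their median over all genes tested was 0.0147. Protein-coding genes numbered 2631 of the higher and 1957 of the lower calls. Long noncoding RNAs accounted for 493 and 547, and a larger share of those tested was called (42.7%, against 32.8% of protein-coding genes). Among the called genes the lines overlapped in CPM for 32. The lack of overlap in the others follows largely from the call itself and adds no support to it.

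With 22Rv1 replicate 3 left out, 3659 of 18290 genes tested were higher (20%) and 3298 lower (18.0%). Of the calls made on all 6 libraries, 3198 of the higher genes (95.7%) and 2573 of the lower genes (95.4%) were called again, and 0 changed sign. The 5 most abundant genes that lost their call were GAPDH, CHD3, SLC35E2B, BTG1 and TLE3. GAPDH, a glycolytic enzyme often used to normalize RT-qPCR, had 3770, 4247 and 4756 CPM in 22Rv1 and 2110, 1990 and 2022 CPM in LNCaP, so that the lines did not overlap. Its log2 fold change was 1.06 (SE 0.10) with replicate 3 and 0.97 without it. BTG1, an antiproliferative factor, had 585 CPM in replicate 3 but 249 and 243 CPM in the other 22Rv1 libraries, against 144 to 165 CPM in LNCaP, and its log2 fold change moved from 1.19 to 0.64.

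**Figure D1:**
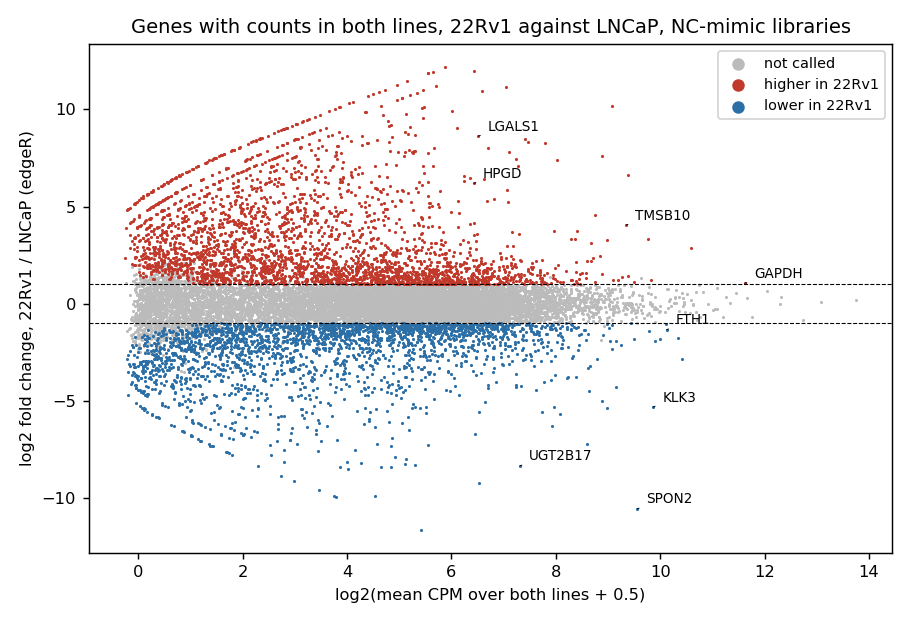
Each point is a gene with counts in both lines, placed by log2 of its mean CPM over both lines plus 0.5 and by its log2 fold change, with genes called higher in 22Rv1 in red, lower in blue and the others in gray, and dashed lines at the fold limit. The 528 genes at 0 in all libraries of 1 line are left out, and SPON2, KLK3 and UGT2B17 lie far below the limit whereas GAPDH lies close to the upper one.

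FOXA1, a pioneer factor that opens chromatin in luminal cells, had 362, 351 and 331 CPM in 22Rv1 and 559, 571 and 535 CPM in LNCaP. HOXB13, a prostate homeobox factor, had 326, 353 and 296 against 534, 466 and 542 CPM. The lines did not overlap for either gene, but the log2 fold changes of -0.67 (SE 0.08) and -0.66 (SE 0.10) were below the fold limit. TPM, used below, is a unit that scales to library size and divides by the length of the transcripts the reads were assigned to.

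KLK3 (chr19, plus strand) moved far more than these factors. It had 39.8, 50.2 and 48.1 CPM in 22Rv1 and 1773, 1653 and 2023 CPM in LNCaP, a log2 fold change of -5.30 (SE 0.14, adjusted p = 2.29e-07). All 3 22Rv1 libraries lay close together, and the value without replicate 3 was -5.34. The neighboring kallikrein KLK2 was lower as well (72 to 96 against 317 to 375 CPM, -1.99), whereas KLK4 was higher (171, 198 and 190 against 77.4, 71.6 and 69.0 CPM, 1.36). The RefSeq promoter window of KLK3, of which a stretch is shown because this gene had the largest TPM difference of the androgen-induced list, holds AGAACA, the half-site of the androgen response element, searched on both strands. It begins 170 bases before the start, at -170, in chr19:50854723-50854772 (GRCh38.p14, plus strand), with the motif in capitals.
KLK3: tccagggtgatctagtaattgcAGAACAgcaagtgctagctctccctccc
The same 6 letters occurred in 8.80% of 11106 promoter windows of tested protein-coding genes, so the match is a description of the sequence.

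Among 36 tested genes that androgen is known to induce, 11 were higher and 15 lower in 22Rv1 (30.6% and 41.7%, against 19.1% and 15.4% of all genes tested), with a median log2 fold change of -0.06. Members thus moved in both directions. The lower members included the serine protease TMPRSS2 (48.2, 61.4 and 25.3 against 179, 169 and 173 CPM, -1.94), the prostatic acid phosphatase ACP3 (11 to 18 against 277 to 301 CPM, -4.26) and the efflux pump ABCC4 (3.08, 5.34 and 9.71 against 194 CPM in each LNCaP library, -5.06). ADAM7 had 0, 0.129 and 0.243 CPM in 22Rv1 and 31.2, 36.0 and 25.2 CPM in LNCaP. Higher members included the co-chaperone FKBP5 (398, 425 and 229 against 71.3, 79.3 and 72.7 CPM, 2.24), the elongation factor ELL2 (2.22) and the prostaglandin-degrading enzyme HPGD (230, 223 and 54.0 against 2.02, 3.29 and 1.52 CPM, 6.20). Without replicate 3, 13 were higher and 15 lower.

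**Figure D2:**
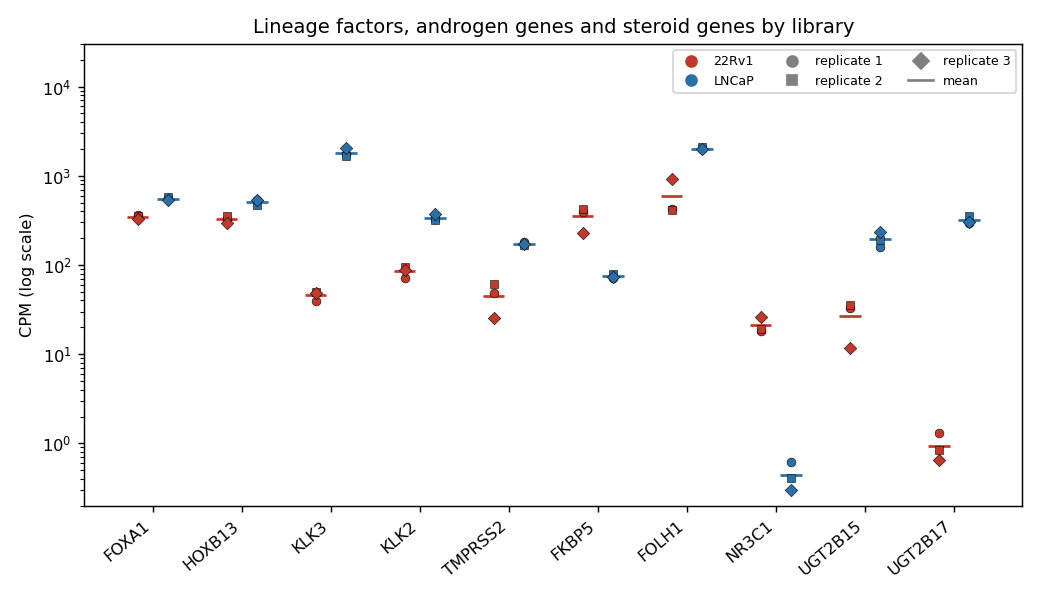
Points give CPM on a log axis for each of the 6 libraries, in red for 22Rv1 and blue for LNCaP with a marker for each replicate, and horizontal bars give the mean. The lineage factors FOXA1 and HOXB13 lie near each other in both lines, KLK3 and UGT2B17 are far lower in 22Rv1, and NR3C1 and FKBP5 are higher there.

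Genes that make or clear androgens differed in both directions. UGT2B17 and UGT2B15, the glucuronosyltransferases that conjugate androgens for removal, were lower in 22Rv1. UGT2B17 had 1.31, 0.836 and 0.647 CPM against 296, 353 and 300 CPM (-8.32, SE 0.21), and UGT2B15 had 33.1, 35.6 and 11.7 against 161, 191 and 235 CPM (-2.86, SE 0.37). Both are near-identical in sequence, so the division of reads between them is uncertain, but their values fell on the same side. AKR1C3, which reduces weak androgens to testosterone, had 59.2, 66.4 and 59.96 CPM in 22Rv1 and 1.55, 1.08 and 1.95 CPM in LNCaP (5.35, SE 0.21), with the caution that AKR1C1, AKR1C2 and AKR1C3 share sequence. CYP11A1, the first enzyme of steroid synthesis, had no counts in 22Rv1 and 2.79, 2.00 and 2.37 CPM in LNCaP. In the list as a whole 7 of 19 tested members were higher and 5 lower, and 5 and 6 without replicate 3.

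NR3C1, which encodes the glucocorticoid receptor, had 18.1, 19.2 and 25.8 CPM in 22Rv1 and 0.621, 0.411 and 0.304 CPM in LNCaP (5.52, SE 0.32). Of 14 tested genes in the list of this receptor and its targets, 5 were higher and 1 lower (35.7% and 7.14%, against 19.1% and 15.4% of all genes tested). Without 22Rv1 replicate 3 these were 4 and 1, and the list's median log2 fold change fell from 0.62 to 0.11. PDK4, an inhibitor of pyruvate oxidation, had 30.1, 31.3 and 135 CPM in 22Rv1 and 2 counts over the LNCaP libraries. ANGPTL4, a lipoprotein lipase inhibitor, was higher at 14.3, 21.2 and 22.6 against 0.310, 0.206 and 0.487 CPM (5.85), whereas the transcription factor KLF9 was lower at 8.14, 7.78 and 17.5 against 79.4, 81.2 and 81.7 CPM (-2.88). FKBP5 belongs to this list and to the androgen list. The luminal list had 5 of 16 members higher and 2 lower, and 4 and 3 without 22Rv1 replicate 3. KRT19, a simple-epithelium keratin, had 164, 206 and 76.1 CPM in 22Rv1 and 1.86, 1.85 and 0.974 CPM in LNCaP (6.55), while the epithelial ETS factor EHF was lower (149 to 180 against 593 to 602 CPM, -1.86). ELF3, at 315 CPM in 22Rv1 replicate 3 and 59.7 and 65.2 CPM in the others, lost its call without that library and also without any 1 LNCaP library. Basal markers were sparse: 6 of 15 were tested, with 2 higher and 3 lower, among them LAMA3 (3.71, 1.61 and 0.485 against 70.2, 72.9 and 78.1 CPM, -5.13, and -6.06 without 22Rv1 replicate 1) and the integrin ITGA6 (2.58, 3.21 and 3.32 against 44.4, 44.6 and 49.7 CPM, -3.94).

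A set of genes had counts almost solely in 1 of the lines. In 22Rv1, 167 genes had a mean of at least 10 CPM with at most 3 counts over the LNCaP libraries, 87 of them with 0. In the other direction there were 34 genes, 23 of them with 0. A floor of 3 counts over a group gives lower bounds for the folds of genes at 0. RGS2, a regulator that shortens G protein signaling, had 549, 521 and 520 CPM in 22Rv1 and 0 counts in LNCaP, at least 9750-fold higher. SRRM4, a neural splicing factor, had 336, 359 and 397 CPM, at least 6700-fold higher. The growth factor HGF, the ligand of MET, had 99.98, 110 and 412 CPM, at least 3820-fold higher, and at least 1930-fold without replicate 3, its highest library. The annexin partner S100A10 had 98.8, 117 and 112 CPM, at least 2010-fold higher. CFC1, a NODAL co-receptor, had 181, 219 and 454 CPM, at least 5230-fold higher. Also at 0 in LNCaP were the protocadherin PCDH7, the synaptic protein CPLX2, the peptidase ACE, POU6F1, DOK6 and the trypsin inhibitor SPINK1, with bounds from 1130-fold to 1340-fold, of which that of DOK6 fell from 1140-fold to 619-fold without replicate 3.

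On the LNCaP side, the chemokine scavenger receptor ACKR3 had 126, 130 and 149 CPM and 0 counts in 22Rv1, at least 2250-fold lower in 22Rv1. The histone variant H2AJ had 129, 97.5 and 159 CPM, at least 2140-fold lower. The matrix peroxidase PXDN, GRK1, the kappa opioid receptor OPRK1 and C14orf132 had 0 counts in 22Rv1 as well, and bounds of 871-fold, 680-fold, 517-fold and 474-fold lower. IL1RN, which blocks the interleukin 1 receptor, had 24.1, 28.2 and 20.6 CPM, and the thyroid hormone deiodinase DIO3 had 26.6, 18.5 and 25.6 CPM, at least 405-fold and 393-fold lower. NLGN4X, PLA2G2A and SPTLC3 followed with bounds of 383-fold, 379-fold and 359-fold, and the inflammasome gene NLRP2 had 1 count in 22Rv1 against 81.5, 88.8 and 84.6 CPM. All these bounds hold for the NC-mimic libraries only. The log2 fold change of SPTLC3 was -11.6 in them but -4.97 (SE 0.38) in the piR-4447944 mimic libraries, whereas that of NLGN4X was -11.7 and -11.6.

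Neuroendocrine genes were higher in 22Rv1. Of 23 on the list 13 were tested, 13 were called higher and 0 lower, with a median log2 fold change of 6.30, also when the 3 members at 0 in LNCaP are set at their lower bound. The 10 others were too low to test, and because counts in 1 line are enough to pass the filter, the count describes these members only. DLL3, a surface antigen of neuroendocrine tumors that is not on this list, went the other way. It was not called on all libraries (-1.31), but edgeR called it lower without 22Rv1 replicate 3 (-2.34, adjusted p = 2.47e-05). Synaptophysin (SYP), a synaptic vesicle protein, had 81.6, 98.6 and 93.7 CPM in 22Rv1 and 0.931, 1.18 and 1.40 CPM in LNCaP (6.29, SE 0.18). The granins CHGB and SCG3, which form secretory granules, had 29 to 63 and 56 to 85 CPM in 22Rv1. In LNCaP CHGB had 1 count, and SCG3 had 0.103, 0 and 0.122 CPM. SNAP25, a vesicle fusion protein, had 16.7, 17.2 and 44.1 CPM and 0 counts in LNCaP. Enolase 2 (ENO2) was expressed in both lines, at 245, 289 and 374 against 69.8, 65.4 and 73.3 CPM (2.12). CHGA was lower than these at 1.63, 1.67 and 17.1 CPM, and CALCA had 2.76, 2.64 and 94.8 CPM. For CHGA and CALCA most of the signal came from replicate 3, and the call for CALCA was lost when LNCaP replicate 2 was left out. Without 22Rv1 replicate 3, 12 members were called, UCHL1 being the one lost, as it was without any 1 LNCaP library.

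Intermediate filaments and PIWI pathway genes were also examined because the series concerns a PIWI-interacting RNA. NEFH, the heavy neurofilament chain, had 32.3, 44.7 and 57.5 CPM in 22Rv1 and 0.362, 0.360 and 0.243 CPM in LNCaP (7.07, SE 0.32, adjusted p = 1.62e-06), and 6.85 without replicate 3. NES, the progenitor filament nestin, moved the same way (94.6, 105 and 122 against 1.76, 1.90 and 2.13 CPM, 5.79), as did the peripheral filament PRPH (2.34). NEFL, the light neurofilament chain, moved the other way, at 0.181, 0.450 and 0.566 against 15.1, 18.1 and 14.4 CPM (-5.38). Together 4 of 7 tested filament genes were higher and 1 lower. Among genes of the PIWI pathway 12 of 23 were tested, 7 were higher and 1 lower. The others were too low to test. Because counts in 1 line are enough to pass the filter, the count describes the tested members only. TDRD9, a helicase of the pathway, had 21.2, 19.0 and 21.6 against 0.0517, 0 and 0.304 CPM, and the mitochondrial nuclease PLD6 had 36.0, 25.7 and 14.5 against 1.34, 1.49 and 1.03 CPM (4.29). HENMT1, which methylates the 3′ end of piRNAs, was higher by 1.72. The lower member was ASZ1 (-2.28). PIWIL2 was below the filter, with 0.317, 0.0643 and 0.324 CPM in 22Rv1 and 0.932, 0.411 and 1.34 CPM in LNCaP. Without 22Rv1 replicate 3 it passed the filter and was called lower by edgeR (-2.09, adjusted p = 0.0402), which made 7 members higher and 2 lower of 13, whereas it was -0.08 in the piR-4447944 mimic libraries. PIWIL4 had at most 0.103 CPM in any of these libraries.

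**Figure D3:**
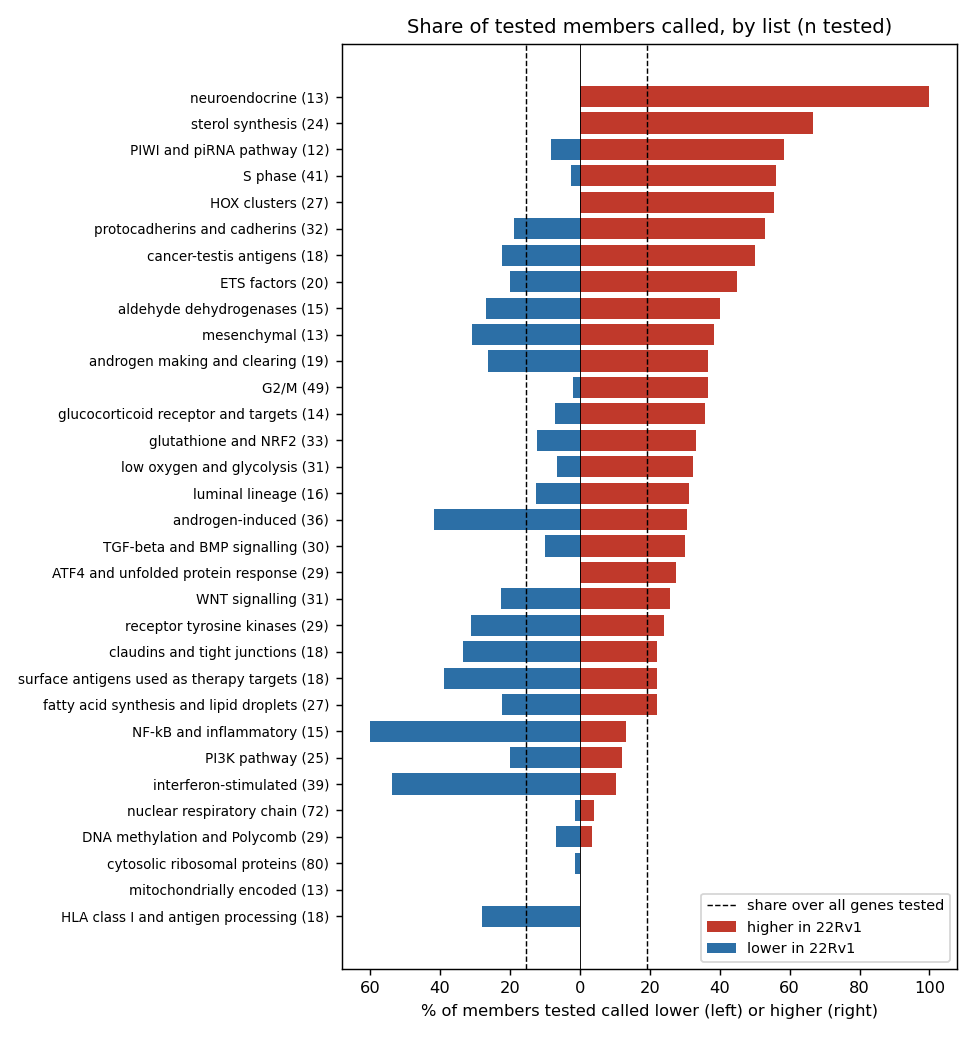
Bars give the percentage of tested members called higher (right, red) or lower (left, blue) in 22Rv1 for most of the lists with at least 12 members tested, whose number is in brackets, and dashed lines mark the shares over all genes tested. Neuroendocrine, sterol synthesis, PIWI, S phase and HOX lists extend furthest to the right, and NF-kB and interferon-stimulated lists furthest to the left.

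Interferon-stimulated genes were lower in 22Rv1. Of 39 tested members 21 were lower and 4 higher (53.8% and 10.3%, against 15.4% and 19.1% of all genes tested), with a median of -1.27, and 21 and 5 without replicate 3. IFIT1, which binds foreign RNA ends, had 0, 0 and 1.78 CPM in 22Rv1 and 20.7, 22.4 and 13.8 CPM in LNCaP. IFIT2 had 0.136, 0 and 0.890 against 22.4, 20.7 and 19.1 CPM, and OASL had 0, 0 and 0.809 against 22.8, 22.5 and 14.8 CPM. In all of these the signal in 22Rv1 came mainly from replicate 3, and it stayed below every LNCaP library. LGALS3BP, a secreted glycoprotein, had 0.859, 0.386 and 0.566 against 41.9, 39.5 and 42.0 CPM (-6.02). The sensors DDX58 and IFIH1 were lower by smaller amounts (-1.59 and -1.37). The 4 higher members were PLSCR1 (16.4, 11.1 and 10.4 against 1.40, 0.874 and 1.40 CPM, 3.37), EPSTI1, BST2 and IFITM2. The call for BST2 (1.72, 3.28 and 15.2 against 0.880, 1.44 and 0.609 CPM) was lost when LNCaP replicate 1 or 3 was left out.

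The promoters of lower and higher members are shown side by side because members of both kinds carry the element that interferon-activated factors read. Capitals mark GAAANNGAAA or its reverse complement, where N is any base, in stretches that end at or before the start site (GRCh38.p14), and the IFIT1 stretch holds it more than once. IFIT1 lies at chr10:89392485-89392538 (plus strand), IFI6 at chr1:27672317-27672370 (minus strand), DDX60 at chr4:168318809-168318862 (minus strand), and PLSCR1 at chr3:146544655-146544708 (minus strand).
IFIT1: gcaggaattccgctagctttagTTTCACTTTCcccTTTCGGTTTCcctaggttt
IFI6: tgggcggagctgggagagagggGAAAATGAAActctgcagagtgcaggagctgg
DDX60: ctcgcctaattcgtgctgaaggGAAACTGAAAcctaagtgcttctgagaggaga
PLSCR1: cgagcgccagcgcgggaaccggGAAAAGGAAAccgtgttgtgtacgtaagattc
IFIT1, IFI6 (0.136, 0.579 and 1.62 against 20.3, 17.7 and 20.4 CPM) and DDX60 (1.40, 1.42 and 1.78 against 18.1, 18.7 and 13.4 CPM) were lower in 22Rv1, and PLSCR1 was higher. The element occurred in 2.76% of 11106 promoter windows. A share over the list is not given, since 30 of 39 tested members had a window, fewer than 80%.

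Antigen presentation and inflammatory genes were lower more often than higher. In the list of HLA class I and antigen processing, 5 of 18 tested genes were lower and 0 higher. NLRC5, the activator of class I genes, had 1.13, 0.257 and 0.809 against 9.11, 7.61 and 10.5 CPM (-3.59). HLA-B had 7.01 and 8.55 CPM in the first 2 22Rv1 libraries but 60.3 CPM in replicate 3, inside the LNCaP range of 46.7 to 61.5 CPM, and HLA-C behaved alike, with 36.6, 46.0 and 137 CPM against 123 to 183 CPM. Neither was called on all libraries. Without replicate 3, 8 members were lower. HLA genes are polymorphic and similar in sequence, so read assignment to each is uncertain. Of 26 NF-kB and inflammatory genes 15 were tested, of which 9 were lower and 2 higher. Without replicate 3 these were 10 and 2 of 16. Counts in 1 line are enough to pass the filter, so this describes the tested members only. BIRC3, an inhibitor of apoptosis, had 1.54, 2.96 and 4.61 against 52.0, 58.6 and 45.5 CPM (-4.16). The subunit NFKB1 had 34.5, 31.4 and 15.4 against 75.9, 75.0 and 81.5 CPM (-1.51). The chemokine CCL20 and the iron-binding protein LCN2 had 0 counts in 22Rv1 and 14 to 19 and 10.6 to 11.2 CPM in LNCaP, at least 272-fold and 182-fold lower. Opposite to these, TRAF1 had 3.57, 6.24 and 4.69 against 0.103, 0 and 0.122 CPM.

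Sterol synthesis genes were higher in 22Rv1, with replicate 3 apart. Of 24 tested genes 16 were higher and 0 lower (66.7%), with a median of 1.64, and 17 and 0 without replicate 3 with a median of 1.88. HMGCS1, which makes the substrate of the rate-limiting step, had 474, 381 and 109 CPM in 22Rv1 and 65.7, 80.7 and 59.8 CPM in LNCaP (2.23). INSIG1, the sterol-regulated retention factor, had 306, 263 and 51.1 against 36.9, 40.9 and 39.0 CPM (2.41). In both replicate 3 was closest to LNCaP while still above it. The list's mean log2 CPM was 7.24 and 7.17 in the first 22Rv1 libraries, 5.91 in replicate 3 and 5.59 to 5.63 in LNCaP. Fatty acid genes had no common direction, with 6 of 27 tested higher and 6 lower. ELOVL6, which elongates fatty acids, was higher (1.97), and FABP5, a fatty acid carrier, had 46.4, 49.0 and 52.9 CPM in 22Rv1 and 2 counts in LNCaP. The desaturase FADS2 was lower (136, 159 and 22.5 against 453, 411 and 488 CPM, -2.08). SCD, another desaturase, had 1629, 1613 and 160 CPM against 430 to 473 CPM, so that replicate 3 fell below LNCaP, and it was called without replicate 3 but not with it.

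S phase genes were higher in 22Rv1. Of 41 tested members 23 were higher and 1 lower (56.1% and 2.44%), with a median of 1.15, and 26 and 1 without replicate 3. The replicative helicase subunit MCM7 had 661, 692 and 360 CPM against 191, 192 and 191 CPM (1.58), the sliding clamp PCNA had 334, 327 and 255 against 124, 142 and 101 CPM (1.32), and the chromatin remodeler HELLS had 166, 174 and 122 against 36.3, 41.4 and 23.9 CPM (2.18). CCNE1, the cyclin that opens S phase, was the lower member (7.24, 5.79 and 10.1 against 18.6, 20.3 and 22.1 CPM, -1.40), whereas CCNE2 was higher (1.26), a call that was lost without LNCaP replicate 3 (0.97). Of 49 tested G2/M genes 18 were higher and 1 lower (36.7% and 2.04%), with a median of 0.77, and 21 and 1 without replicate 3. This list's mean log2 CPM was 6.61 and 6.49 in the first 22Rv1 libraries, 6.055 in replicate 3 and 5.54 to 5.79 in LNCaP. The CDK subunit CKS1B had 149, 149 and 136 against 30.6, 34.6 and 27.1 CPM (2.23), and NEK2 was higher by 1.78. MKI67, a proliferation marker, had 523, 488 and 297 against 192, 200 and 165 CPM (1.23). The lower one was KIF20B (11.6, 8.04 and 7.12 against 39.6, 42.9 and 31.3 CPM, -2.08).

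Promoter stretches of S phase genes are given because this list moved mainly in 1 direction. Capitals mark TTTCGCGC or TTTGGCGC, forms of the E2F element, searched on both strands. In the MCM6 stretch TTTGGCGC overlaps a match to TTTCGCGC on the other strand, and both are marked as 1 run. POLA2 lies at chr11:65261887-65261938 (plus strand), HELLS at chr10:94545690-94545741 (plus strand), POLE at chr12:132687343-132687382 (minus strand) and MCM6 at chr2:135876504-135876555 (minus strand), all in GRCh38.p14.
POLA2: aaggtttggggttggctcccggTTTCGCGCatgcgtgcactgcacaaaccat
HELLS: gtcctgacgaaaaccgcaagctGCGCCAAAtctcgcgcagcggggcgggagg
POLE: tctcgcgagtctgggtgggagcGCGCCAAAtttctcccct
MCM6: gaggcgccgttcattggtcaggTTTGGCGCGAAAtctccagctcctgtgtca
Of 41 tested S phase genes 37 had a window, and 13 of these (35.1%) held the motif, against 2.06% of 11106 windows. It was found in 7 of 20 windows of members called higher and in 6 of 17 windows of the other members. HELLS and POLE (315, 316 and 192 against 76.6, 84.4 and 73.6 CPM, 1.81) were called higher, while POLA2 and MCM6 were not called.

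In mismatch repair MSH3, a subunit of a mismatch sensor, had 2.67, 5.21 and 4.29 CPM in 22Rv1 and 22.8, 25.7 and 22.0 CPM in LNCaP (-2.55). MSH6, another sensor subunit, was below the fold limit (0.54, SE 0.10). The list had 3 of 9 tested genes higher and 2 lower, and the call for PMS2 (-1.01) was lost without 22Rv1 replicate 3 and without LNCaP replicate 1 or 2.

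Of 25 tested genes of the PI3K pathway 3 were higher and 5 lower. PIK3CD, a catalytic subunit, had 0.950, 0.643 and 3.88 against 179, 161 and 177 CPM (-6.70, and -7.70 without 22Rv1 replicate 3), and PIK3R3, a regulatory subunit, was lower by 2.52 on the log2 scale. The insulin receptor substrates IRS1 and IRS2 moved the other way, with 58.1, 68.9 and 83.9 against 6.11, 5.60 and 9.62 CPM for IRS1 (3.31) and 79.0, 75.7 and 212 against 4.29, 4.47 and 5.05 CPM for IRS2 (4.73, and 4.07 without 22Rv1 replicate 3). Receptor tyrosine kinases had 7 of 29 tested higher and 9 lower. FGFR3 had 97.4, 109 and 66.3 against 2.79, 2.47 and 3.47 CPM (4.97), ERBB4 was higher (5.62, and 6.32 without LNCaP replicate 1) and ERBB2 lower (93.6, 90.5 and 118 against 304, 276 and 337 CPM, -1.60).

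The ETS factor ETV1, which is rearranged in LNCaP, had 21.4, 19.4 and 38.8 CPM in 22Rv1 and 214, 235 and 222 CPM in LNCaP (-3.08, SE 0.25). Of 20 tested ETS factors 9 were higher and 4 lower, and ETV5 (4.79, 4.82 and 29.0 against 0.103, 0.360 and 0.365 CPM), ELF5 and FEV were among the higher. WNT genes had 8 of 31 tested higher and 7 lower. The secreted inhibitor DKK1 had 14.9, 11.3 and 20.4 CPM against 1 LNCaP count, the receptor FZD8 was higher (3.96), and the feedback genes NKD1 and APCDD1 were lower (0, 0.0643 and 0.728 against 11.8, 8.02 and 16.2 CPM for NKD1). TGF-beta and BMP genes had 9 of 30 tested higher and 3 lower. BMP2 had 31.3, 37.5 and 61.9 CPM and 0 counts in LNCaP, at least 802-fold higher. TGFB1 had 16.2, 29.9 and 40.7 against 0.362, 0.206 and 0.365 CPM (6.51), and the inhibitors of differentiation ID1, ID2, ID3 and ID4 were all called higher (1.98 to 6.79). INHBA, with 3.66, 2.83 and 72.5 CPM, rested mainly on replicate 3. Of 39 HOX genes 27 were tested, of which 15 were higher and 0 lower, with a median of 1.51. The same number was called without replicate 3. The others were too low to test. Because counts in 1 line are enough to pass the filter, the count describes the tested members only. HOXB5 had 23.6, 22.8 and 16.3 against 0.0517, 0 and 0.122 CPM, and HOXC10 had 21.0, 22.4 and 18.0 against 0.155, 0.206 and 0.426 CPM (6.28).

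Adhesion genes changed in both directions. Of 32 tested cadherins and protocadherins 17 were higher and 6 lower, and 15 and 8 without 22Rv1 replicate 3. CDH3, or P-cadherin, had 73.3, 81.1 and 79.4 against 0.880, 1.13 and 1.76 CPM (5.96), and N-cadherin (CDH2) had 8.86, 9.003 and 12.1 CPM with 0 counts in LNCaP. E-cadherin (CDH1) was expressed in both lines and was not called (402, 380 and 494 against 808, 812 and 743 CPM, -0.89), but it was called lower without 22Rv1 replicate 3 (-1.01). The desmosomal DSC2 (-2.63, and -3.22 without that library) and DSG2 (-1.25) were lower. Of 18 tested tight junction genes 4 were higher and 6 lower, with CLDN11 at 53.8, 45.1 and 135 against 0.259, 0.308 and 0.426 CPM (7.86, and 7.21 without that library) and occludin (OCLN) at 28.4, 23.7 and 17.2 against 154, 167 and 140 CPM (-2.72). In the mesenchymal list 5 of 13 tested were higher and 4 lower, and 5 and 6 without 22Rv1 replicate 3. Vimentin (VIM) had 32.6, 25.7 and 113 against 6.42, 7.505 and 9.07 CPM (2.89), whereas fibronectin (FN1) had 16.9, 16.6 and 89.5 against 560, 563 and 548 CPM (-3.78), and COL6A1 was lower by 4.15. Replicate 3 was the highest 22Rv1 library for both VIM and FN1, and without it their log2 fold changes were 1.93 and -5.06. Keratins had 2 of 7 tested higher and 3 lower, and the call for KRT20 was lost when LNCaP replicate 1 or 2 was left out. S100 proteins had 5 of 7 tested higher and 0 lower, and 5 and 1 without 22Rv1 replicate 3, with 19 on the list. Counts in 1 line are enough to pass the filter, so this describes the tested members only. S100A6 was at 22.7, 22.96 and 26.1 CPM with 0 counts in LNCaP. Mucins and trefoil factors had 4 of 10 tested higher and 2 lower. MUC13 had 55.6, 54.5 and 188 CPM against 1 LNCaP count, and TFF3 had 0 counts in 22Rv1 against 3.67, 2.36 and 3.59 CPM.

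Surface antigens used as therapy targets had 4 of 18 tested members higher and 7 lower. FOLH1, which encodes prostate-specific membrane antigen, had 428, 417 and 928 CPM in 22Rv1 and 1979, 2083 and 1990 CPM in LNCaP (-1.77, SE 0.29), and -2.26 without replicate 3. STEAP1 (120, 130 and 140 against 386, 452 and 430 CPM, -1.70), STEAP2 (-1.90), CD276 (-1.55) and NECTIN4 (-2.41) were lower as well. Tissue factor (F3) had 7.60, 9.13 and 8.01 against 0.207, 0.103 and 0.365 CPM (5.18), and CEACAM6 was higher. Cancer-testis antigens had 9 of 18 tested higher and 4 lower, with 30 of 48 listed genes too low to test. Without 22Rv1 replicate 3 these were 8 and 5 of 19 tested, and the list's median log2 fold change fell from 1.23 to 0.40. MAGEA4 had 248, 264 and 271 against 4.97, 4.47 and 4.20 CPM (5.84), and CTAG1B had 83.3, 104 and 91.6 CPM against 1 LNCaP count. MAGEA10 moved the opposite way (0.181, 0.193 and 0 against 45.5, 49.96 and 51.4 CPM, -8.39), as did PRAME (26.3, 25.4 and 45.6 against 210, 221 and 215 CPM, -2.74). Families with near-identical copies, such as CTAG1A, CTAG1B and CTAG2, SSX and GAGE, share reads, so values of single members are uncertain.

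In the list of low oxygen and glycolysis 10 of 31 tested were higher and 2 lower, and 9 and 2 without replicate 3. The lactate exporter SLC16A3 had 44.8, 74.8 and 157 against 2.07, 1.75 and 3.90 CPM (5.18, and 4.56 without replicate 3), HK2, the first enzyme of glycolysis, had 173, 179 and 142 against 45.9, 43.1 and 52.1 CPM (1.81), and EGLN3, an oxygen sensor, was lower (-3.13). Glutathione and NRF2 genes had 11 of 33 tested higher and 4 lower, and 12 and 5 without replicate 3. Their median log2 fold change was 0.02, and -0.12 without that library. NQO1 was not called on all libraries (0.47), but edgeR called it lower without replicate 3 (-2.11, adjusted p = 1.33e-08). GCLC, the rate-limiting enzyme of glutathione synthesis, had 92.0, 98.4 and 107 against 19.7, 19.6 and 18.3 CPM (2.37), and heme oxygenase HMOX1 had 41.1, 50.7 and 313 against 14.6, 11.5 and 14.7 CPM (3.30, and 1.75 without replicate 3). GSTP1 was listed at 0 in all 6 libraries. Of 15 tested aldehyde dehydrogenases 6 were higher and 4 lower, and 9 and 4 of 16 without replicate 3. ALDH3A2 had 1560, 1809 and 1373 against 154.5, 158.5 and 156 CPM (3.34), ALDH7A1 had 50.8, 57.4 and 66.0 CPM with 0 counts in LNCaP, and ALDH1A3 had 0, 0.707 and 0.0809 against 74.4, 72.6 and 85.5 CPM. Of 29 tested genes of the ATF4 and unfolded protein response 8 were higher and 0 lower (27.6% higher, against 19.1% of all genes tested). Without replicate 3 they numbered 6 and 0, near the 20% of all genes called higher in that fit, and the list's median fell from 0.52 to 0.11. SLC7A5, an importer of large amino acids, did not rest on that library (245, 274 and 269 against 5.49, 6.42 and 9.07 CPM, 5.24), while the calls for DDIT3 (52.3, 58.1 and 138 against 28.6, 30.1 and 27.1 CPM) and ASNS (181, 174 and 383 against 85.1, 95.3 and 87.0 CPM) did. Metallothioneins had 2 of 7 tested higher and 0 lower, MT1E being at 19.5, 18.5 and 43.0 CPM with 0 counts in LNCaP.

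**Figure D4:**
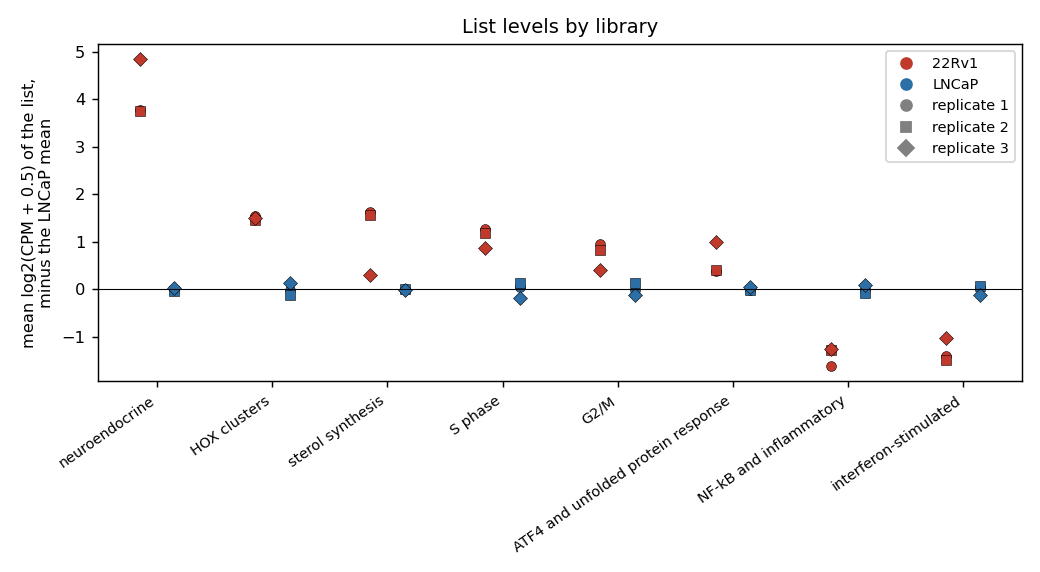
The mean log2(CPM + 0.5) over the tested members of each list is plotted for each of the 6 libraries after subtraction of the LNCaP mean, with 22Rv1 in red, LNCaP in blue and a marker for each replicate. Replicate 3 of 22Rv1 (diamond) lies near LNCaP for sterol synthesis and above the other 22Rv1 libraries for the neuroendocrine, ATF4 and interferon-stimulated lists. It lies below them, toward LNCaP, for the S phase and G2/M lists, and the HOX list shows no such offset.

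Core cellular machinery differed little. Of 80 tested cytosolic ribosomal protein genes 0 were higher and 1 lower, RPL22L1 (136, 117 and 148 against 271, 335 and 275 CPM, -1.14). Of 13 mitochondrially encoded genes 0 were called. Of 72 nuclear genes of the respiratory chain 3 were higher and 1 lower, the lower one being NDUFB4 (130, 113 and 152 against 397, 463 and 399 CPM, -1.68). Genes of DNA methylation and Polycomb had 1 of 29 tested higher and 2 lower. EZH2, the methyltransferase of Polycomb complex PRC2, was higher (132, 122 and 100.3 against 34.9, 41.0 and 33.4 CPM, 1.70), and KDM6A, which removes the same histone mark, was lower (39.3, 29.2 and 43.4 against 464, 494 and 450 CPM, -3.65).

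In TPM, which allows genes to be compared with each other, the genes with the largest differences included GAPDH, KLK3, NDUFB4, FOLH1 and RPL22L1, described with their counts elsewhere, and the following genes of other kinds. The actin-sequestering protein TMSB10 stood at 8217 ± 1478 TPM in 22Rv1 and 517 ± 76.0 TPM in LNCaP. The heparin-binding cytokine MDK (1409 ± 117 against 110 ± 5.36 TPM), the chromatin protein HMGB2 (1218 ± 215 against 134 ± 26.7 TPM) and the chaperone CLU (1146 ± 275 against 75.4 ± 13.3 TPM) were also higher. LGALS1, a galectin, had 896 ± 406 TPM in 22Rv1 and 2.34 ± 0.654 TPM in LNCaP. The ATP synthase subunit ATP5MF (3507 ± 97.2 against 867 ± 123 TPM) and TPI1 (1563 ± 132 against 687 ± 29.0 TPM) were higher too. In the other direction SPON2, a secreted matrix protein, fell from 2205 ± 250 TPM in LNCaP to 1.56 ± 1.44 TPM in 22Rv1, and the ferritin heavy chain FTH1 was lower at 1677 ± 327 against 4564 ± 242 TPM. The prostate gene PRAC1 (163 ± 31.0 against 1061 ± 123 TPM) and the elongation factor EEF1A2 (237 ± 78.0 against 997 ± 110 TPM) were lower as well. All values are mean ± SD with n = 3 libraries, and each of these genes passed the call above on counts.

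Calls were unevenly spread over chromosomes. On chromosome 12, 29.0% of 922 tested genes were higher and 6.94% lower, with a median log2 fold change of 0.55. Chromosomes 7 (28.2% higher, 9.38% lower, median 0.45) and 13 (28.0% higher, median 0.42) were similar. Chromosome 15 had 13.1% higher and 22.9% lower with a median of -0.32, and chromosome 20 a median of -0.26. Among 271 bins of 10 Mb with at least 20 tested genes, 4 had a median beyond 1 in size. On chromosome 15 from 20 to 30 Mb, 25 of 41 genes were lower and 2 higher, with a median of -1.76, and of -1.63 in the piR-4447944 mimic libraries. It holds the junction protein TJP1 (95.0 ± 26.0 against 368 ± 5.26 CPM, -1.95), the imprinted genes SNRPN (87.3 ± 19.6 against 313 ± 16.1 CPM, -1.84) and NDN (5.88 ± 1.28 against 42.0 ± 3.05 CPM, -2.82). On chromosome 6 from 80 to 90 Mb, 27 of 42 genes were higher and 1 lower (median 1.67), among them SNX14, PGM3 and ZNF292 with log2 fold changes of 1.09, 1.04 and 1.69, and the call for PGM3 was lost without 22Rv1 replicate 1 or LNCaP replicate 3. On chromosome 7 from 80 to 90 Mb, 16 of 21 were higher and 0 lower (median 2.91, and 2.40 without replicate 3), HGF among them, but the median was 1.37 in the mimic libraries. On chromosome 13 from 50 to 60 Mb, 14 of 28 were higher and 0 lower (median 1.09). On chromosome 6 from 20 to 30 Mb, where the median was -0.84, 38 of 96 genes were lower and 11 higher. It is described for its histone genes and not for its rank. The medians on chromosome 2 from 120 to 130 Mb (-0.93) and chromosome 5 from 10 to 20 Mb (-0.87) were lower. The chromosome 6 bin holds a histone gene cluster, in which H1-2 (6.84 ± 1.69 against 127 ± 9.33 CPM, -4.23), H2AC6 (7.22 ± 1.65 against 86.6 ± 6.16 CPM, -3.60) and H4C8 (-4.41) were lower. DNA copy number was not measured in these libraries.

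**Figure D5:**
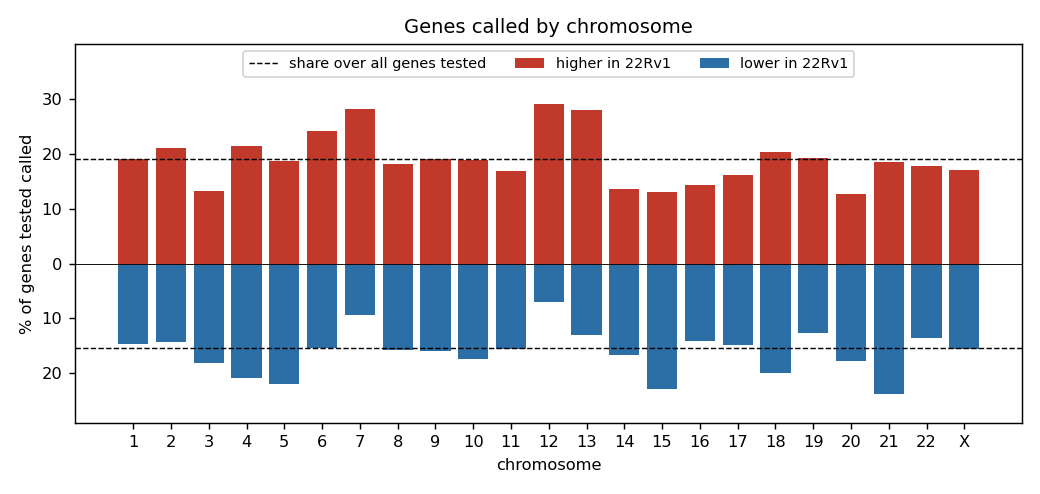
Bars give, for each chromosome, the percentage of tested genes called higher (up, red) or lower (down, blue) in 22Rv1, with dashed lines at the shares over all genes tested. Chromosomes 7, 12 and 13 rise furthest above the upper line and chromosomes 5, 15 and 21 reach furthest below the lower one.

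The 6 libraries that received piR-4447944 mimic in place of NC-mimic give the same comparison in other libraries of the same lines. Whether they came from cultures separate from those of the NC-mimic libraries is not stated in the sources used here. Of the genes called on NC-mimic libraries, 2732 of the higher (81.7%) and 2036 of the lower (75.5%) were called again there, and 7 and 21 had the opposite sign. Across the 16849 genes tested in both, Spearman's correlation of the log2 fold changes was 0.938. Genes are not independent replicates, and this value is a description. An edgeR test of whether the difference between the lines depended on the mimic gave 0 of 18706 genes at an adjusted p under 0.05, with a smallest adjusted p of 0.669 and 603 genes (3.22%) at an unadjusted p under 0.05. In those libraries 13 sterol synthesis genes, 16 S phase genes and 16 HOX genes were higher and 20 interferon-stimulated genes lower. G2/M genes numbered 5 higher and 2 lower there, against 18 and 1 in the NC-mimic libraries, and the difference between these counts was not tested.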

How the data were processed

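RNA was extracted with a miRNeasy kit and libraries were prepared by a company. The authors deposited, per library, RSEM expected counts and TPM per gene. The submitters' processing notes name STAR 2.7.1a, RSEM 1.3.0, R 4.1.1, DESeq2 1.34.0 and hg38. The annotation release, trimming and strand setting are not given in the sources used here, so overlapping antisense genes cannot be told apart. RSEM divides reads among similar genes, which makes near-identical copies uncertain. No comparison columns of the authors were used.

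These deposited estimates, once rounded, were tested with edgeR 4.0.16 in R 4.3.3 (TMM scaling, filterByExpr, quasi-likelihood test, Benjamini-Hochberg adjustment). A call needed an adjusted p under 0.05 together with a log2 fold change over 1 in size. CPM values used TMM library sizes. The floor of 3 counts covers counting error only. The fit was tested on simulated data. Symbols and positions came from GENCODE 44, and promoter sequences, with 250 bases before and 50 after the start, from RefSeq (GRCh38.p14). For 79.5% of tested protein-coding genes a window was found, under the 80% set for a comparison of promoter composition, which is therefore void.

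The members and the 43 gene lists were chosen with earlier results of these data known, and no set test was run. Named genes are the 12 protein-coding genes with the largest fold in each direction (called also without 22Rv1 replicate 3, no overlap, at least 10 CPM), the 8 with the largest TPM difference, up to 3 called members of each list per direction and others needed to describe it, and a fixed set that includes KLK3, KLK2, MSH6 and NEFH. Genes of the Y chromosome and XIST are left out, and some other genes are not reported here. Same-numbered libraries of the lines did not deviate together (correlations 0.0152, 0.0317 and 0.120), so the numbers were not treated as pairs. Alternatives were other scalings, filters, fold limits and tools (DESeq2 1.42.0, limma 3.58.1, including log2(TPM + 1)), a replicate block, a fit on all libraries, and leaving out each library.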

Additional observations from a re-analysis of the deposited data

How the results depend on the processing

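The main counts were 3343 genes higher and 2697 lower in 22Rv1. They moved by over 1.5 times only where the call rule or filter was changed. With at least 10 counts required in every library they were 1855 and 1702. A log2 fold change limit of 2 gave 2054 and 1359, and no limit 5406 and 4817. The study's limits (unadjusted p under 0.05, log2 fold change over 0.2) gave 5774 and 5245. The study used them with DESeq2 and shrunken fold changes for mimic against control. Here they were set on edgeR p-values and fold changes that were not shrunk. The filter of 10 counts removes genes silent in 1 line by construction. Leaving out each library in turn gave 3202 to 3659 higher and 2427 to 3298 lower. With a replicate block the counts were 3195 and 2717. DESeq2 gave 3314 and 2689, and limma on log2(TPM + 1) 2344 and 2562. Among named genes, 112 values lost and 6 gained their call in some alternative, and 3992 kept direction and side of the threshold. ACVR1, CD68, LUM, BST2 and KRT20 are among those that lost the call when 1 library was left out. The spread in 22Rv1 (biological coefficient of variation 0.306, against 0.106 in LNCaP) and its shallowest library limit low genes.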
